A study of Homo sapiens with 24 samples.

Results

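HIF1A, EGLN3, VEGFA, ADM, BNIP3, PFKP, PFKFB3, HK2, LDHA and PKM are 10 genes of the hypoxia response and of glycolysis. They were followed over 8 times after replating of HepaRG cells. Members were the probe sets that the array's annotation table gives to one of these symbols alone, 16 in all among 22215 non-control probe sets. Of the 16, 15 passed the filter on low signals and were tested among 17122 probe sets. The exception was probe set 222305_at of HK2, which lay above the 40th percentile of its array on 1 of 24 arrays.

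HepaRG is an established human hepatoma line whose cells mature into hepatocyte-like and biliary-like cells. All 24 samples came from this line. It had been grown for 2 weeks in William's E medium with serum, insulin and hydrocortisone and then for 2 weeks more with 2% DMSO. The hepatocyte-like cells were released by gentle trypsin treatment and seeded sparsely to set off reprogramming. The 8 groups were cells taken at 0, 1, 4 and 8 h and later at 12, 16, 24 and 48 h, with 3 arrays each, and the labels give no other treatment and no oxygen level. Whether the 3 replicates of a time grew as separate cultures is not labelled. The p-values therefore reflect no more than the spread among the arrays at hand, part or all of which may be technical.

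In cells with enough oxygen, prolyl hydroxylases of the EGLN family mark the alpha subunits of hypoxia-inducible factors (HIF) for capture by VHL and for destruction. When oxygen falls, or when signalling raises HIF1A synthesis, the alpha subunit accumulates, pairs with ARNT and binds short RCGTG-type DNA motifs. Known targets include genes for glucose uptake, glycolysis, blood vessel growth and mitochondrial turnover. Mature hepatocytes mainly make and export glucose and use liver forms of several glycolytic enzymes, while proliferating and dedifferentiated cells use more widespread forms. The array measured transcripts, and neither HIF protein nor metabolic flux was measured.

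Proximal promoters of 4 members are shown for the letters of the HIF motif. They were picked as the windows with the fewest and the most matches. Whether the number of matches goes with the direction of change was not tested. RefSeq promoter windows of 300 bases (250 before to 50 after the start, GRCh38.p14) were matched for 9 of the 10 members. They were searched on both strands for ACGTG and GCGTG, and overlapping matches such as those of the palindrome CACGTG were counted as 1 site. The capitals mark the matches, which on the opposite strand read CACGT and CACGC. PFKP and EGLN3, the members with the largest rises, had no match. LDHA, whose signal stayed level, had 4 sites, and BNIP3, whose signal fell, had 5. The coordinates were chr10:3067720-3068019 on the plus strand for PFKP, chr14:33951025-33951324 on the minus strand for EGLN3, chr11:18394313-18394612 on the plus strand for LDHA and chr10:131981874-131982173 on the minus strand for BNIP3.
PFKP: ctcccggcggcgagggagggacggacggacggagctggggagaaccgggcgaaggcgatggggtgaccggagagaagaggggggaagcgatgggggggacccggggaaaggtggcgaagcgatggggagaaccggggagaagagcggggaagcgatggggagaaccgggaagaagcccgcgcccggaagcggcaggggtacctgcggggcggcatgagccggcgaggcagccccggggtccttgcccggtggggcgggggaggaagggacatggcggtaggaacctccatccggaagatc
EGLN3: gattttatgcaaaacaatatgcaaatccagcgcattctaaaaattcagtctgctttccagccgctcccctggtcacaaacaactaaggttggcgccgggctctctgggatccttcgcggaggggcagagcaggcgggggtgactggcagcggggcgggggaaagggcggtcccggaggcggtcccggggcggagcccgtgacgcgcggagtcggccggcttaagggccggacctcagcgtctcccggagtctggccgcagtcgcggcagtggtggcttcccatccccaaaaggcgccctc
LDHA: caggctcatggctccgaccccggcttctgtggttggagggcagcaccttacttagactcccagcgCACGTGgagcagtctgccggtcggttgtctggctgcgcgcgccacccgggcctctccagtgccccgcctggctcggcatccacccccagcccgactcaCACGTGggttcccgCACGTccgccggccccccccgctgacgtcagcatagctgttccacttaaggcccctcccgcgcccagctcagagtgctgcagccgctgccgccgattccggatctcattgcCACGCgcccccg
BNIP3: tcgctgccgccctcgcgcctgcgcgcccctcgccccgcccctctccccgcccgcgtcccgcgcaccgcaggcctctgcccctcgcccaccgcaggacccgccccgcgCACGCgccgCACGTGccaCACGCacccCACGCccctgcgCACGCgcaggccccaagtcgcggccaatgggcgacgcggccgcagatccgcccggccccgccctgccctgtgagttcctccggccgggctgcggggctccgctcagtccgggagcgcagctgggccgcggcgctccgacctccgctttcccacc
HK2 had 3 sites, and PFKFB3, PKM, ADM and HIF1A had 1 each, so 7 of the 9 windows held a match. The member without a matched window was VEGFA, whose signal fell, so these counts of sites do not cover it. Of 8116 promoters of genes tested on the array, 61.1% held at least 1 match and 38.9% none. At least 4 sites were found in 4.14% of them and at least 5 in 1.28%. Over all 27305 windows of this length, 48.4% held a match. A match here is a description of letters and not of binding, which was not measured.

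All values are MAS5 signals, linear intensities whose mean, trimmed by 2% at either end, lay between 491 and 495 on every array. Changes are differences of mean log2(signal + 18) with their standard error (SE) from limma, and 18 is the 20th percentile of all signals. Adding 18 understates the change of dim probe sets. A probe set was called at a Benjamini-Hochberg adjusted p under 0.05 over all 17122 tested and a change of at least 2-fold. Where a gene had several tested probe sets, the brightest of these over all arrays stood for it. Median log2 changes of all 9966 genes against 0 h lay between -0.16 and -0.09, so changes were read against a slightly lower background. The 7 comparisons with 0 h share the same 3 arrays at 0 h.

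Arrays of the same time correlated at 0.933 to 0.967 over log2 signals. The 0 h array of replicate 2 stood apart in RNA quality: its ACTB 3' to 5' signal ratio was 6.91, against 2.03 and 2.56 in the others at 0 h and a mean of 1.16 ± 0.13 (SD, n = 3) at 48 h. EGLN3 and PFKP had their lowest signals on that same array. Its part in their changes was not tested, and their values without it stand beside the results. Without this array the counts of called member probe sets against 0 h given below became 1 for 1 h, 4 for 4 h and 5 for 8 h. The counts of the remaining times were the same, but at 12 h the brighter PKM probe set lost its call and the dimmer BNIP3 probe set gained a call. Hepatocyte markers were present, and their summed signal over 9 genes was 378209 to 413078 at 0 h and 120235 to 134297 at 48 h. All 9 were called lower at 48 h. The sum over 5 bile duct markers was 4664 to 5233 at 0 h, 18264 to 23325 at 4 h and 16120 to 20381 at 48 h, with 4 of the 5 called higher at 4 h and 2 (KRT7 and KRT19) at 48 h. That over 7 fibroblast and stellate markers moved from 1781 to 2259 at 0 h to 3792 to 4957 at 48 h, where 3 of the 7 (DCN, LUM and ACTA2) were called higher. Sums over 3 endothelial and 4 blood cell markers were at or below 1052 on every array, and no marker was at 0. The endothelial sum was 435 to 530 at 0 h and 180 to 216 at 48 h, and the blood cell sum 588 to 821 and 371 to 444. KDR, HBB and CD3D of these lists were called lower at some time. How far these shifts bear on the members was not tested, and in a bulk sample fewer cells of a type and less RNA per cell cannot be told apart.

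Of the 10 genes, 7 were called against 0 h at 1 or more later times, beside 40.4% of all 9966 genes. HIF1A, EGLN3, PFKP, PFKFB3 and PKM rose, and VEGFA and BNIP3 fell. LDHA, ADM and HK2 were not called against 0 h at any time. The moderated F-test over the whole course passed for 12 of the 15 probe sets, beside 53.6% of all tested, and the others were those of LDHA and HK2 and the dimmer PKM probe set.

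**Figure D1:**
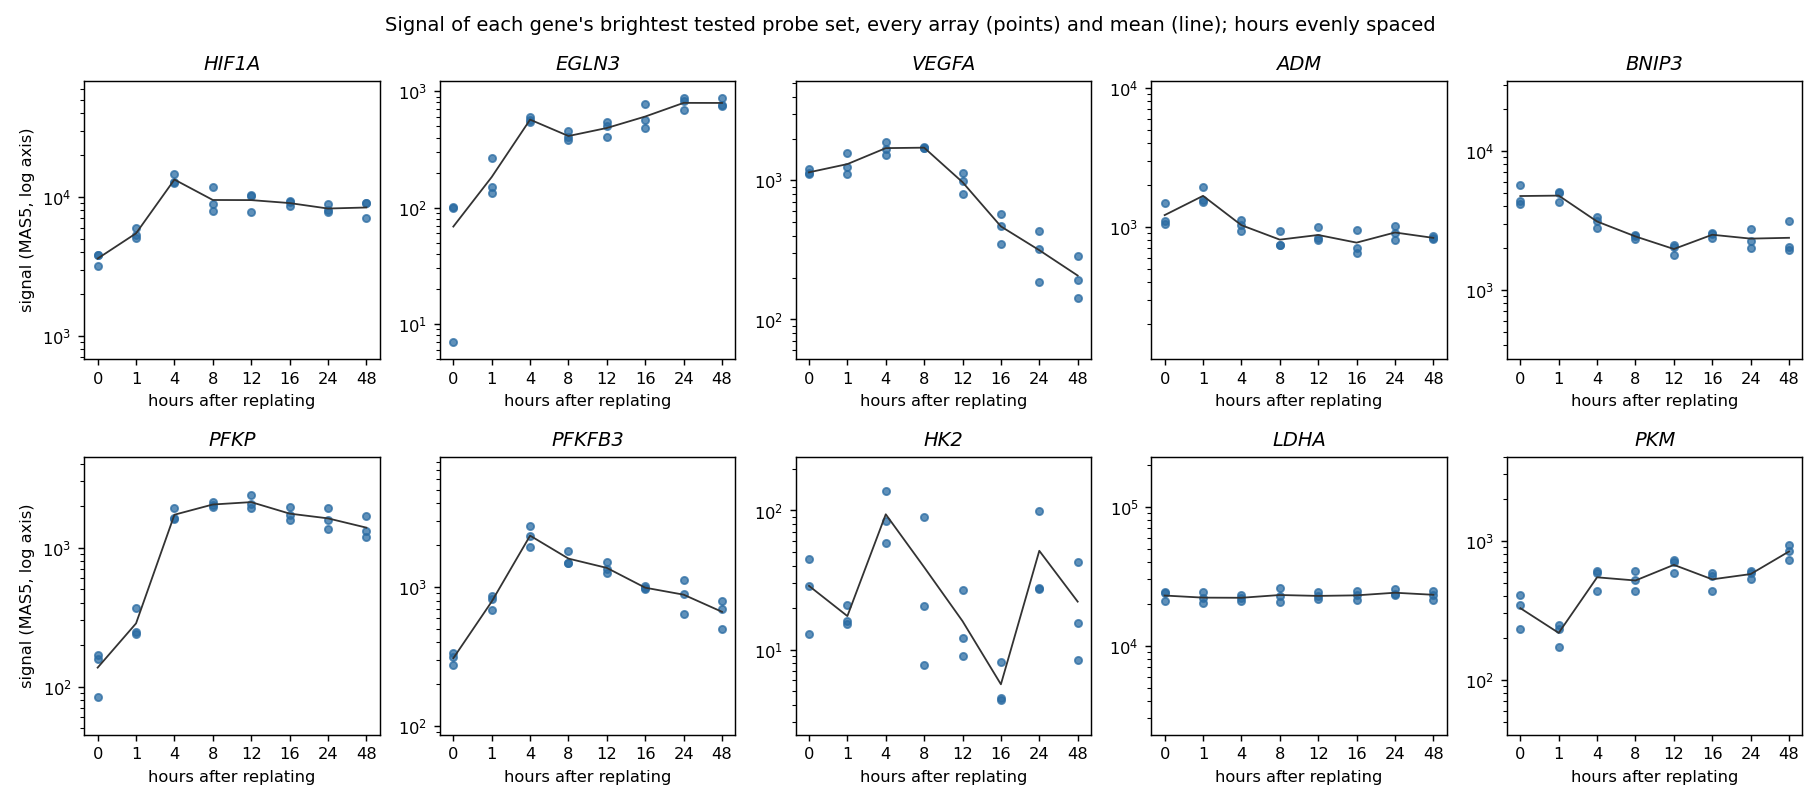
MAS5 signal on a log axis against hours after replating (evenly spaced) for the brightest tested probe set of each gene; points are the 3 arrays of a time and the line joins their means. PFKP, EGLN3, PFKFB3 and HIF1A stand above their 0 h arrays from 4 h on, VEGFA falls from 1721 at 8 h to 207 at 48 h, LDHA is level, and HK2 is near the low end of the array.

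At 1 h, 2 of 15 member probe sets were called, those of EGLN3 and PFKFB3, beside 2.53% of all tested. At 4 h, 5 were called against a background of 13.5%, with PFKP, HIF1A and the dimmer PKM probe set added. At 8 h, 4 were called (background 17.3%), and at 12 h, 6 were called (17.9%), with BNIP3 lower and the brighter PKM probe set higher. At 16 h, 6 were called (19.6%), at 24 h, 8 (20.1%), and at 48 h, 9 (20.2%), of which 4 were lower and belonged to VEGFA and BNIP3. Between 1 h and 4 h, 6 probe sets were called, all higher, beside 9.77% of all tested. In 4 of the 5 later steps limma called 0 member probe sets. Over all tested, 2.55% were called between 4 h and 8 h and 0.362% between 8 h and 12 h. The shares were 1.15% between 16 h and 24 h and 1.2% between 24 h and 48 h. At an unadjusted p under 0.05 these 4 steps had 5, 2, 3 and 4 member probe sets. The step from 12 to 16 h had 1 call, VEGFA lower (0.204%). Between 4 h and 48 h, 6 probe sets were called, all lower (16% of all tested in either direction), namely the 4 of VEGFA and those of PFKFB3 and HK2. Both this count and that from 1 h to 4 h include HK2, whose probe set passed the filter only through its 4 h arrays.

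**Figure D2:**
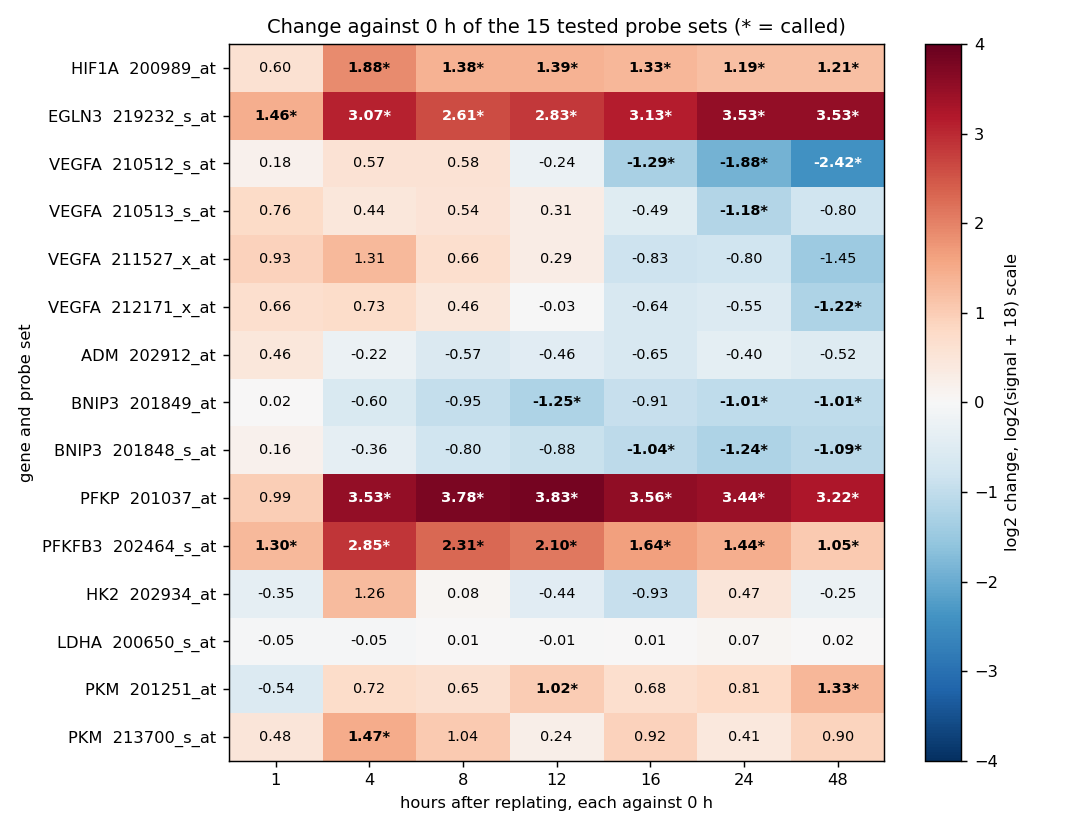
Log2 change against 0 h for each of the 15 tested member probe sets (rows) at the 7 later times (columns), on the log2(signal + 18) scale; an asterisk marks a call. The rows of EGLN3, PFKP, PFKFB3 and HIF1A are called higher from 4 h to 48 h, with PFKP reaching 3.83 at 12 h, and VEGFA reaches -2.42 at 48 h.

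HIF1A encodes the oxygen-regulated alpha subunit of HIF-1. Its signal (probe set 200989_at) was 3804, 3814 and 3197 at 0 h, 5107, 5354 and 5951 at 1 h, and 12579, 14541 and 12884 at 4 h. It was 8879, 7864 and 11779 at 8 h, 10238, 10384 and 7848 at 12 h, and 9179, 8600 and 9326 at 16 h. Values at 24 h were 7782, 8883 and 8092, and at 48 h 7103, 9065 and 9021. Every array from 1 h on lay above the 3 at 0 h, and the 4 h arrays lay above those of every other time. The increase at 1 h was 0.60 ± 0.14 (SE) on the log2 scale (adjusted p = 0.0069), below the 2-fold threshold. HIF1A rose by 1.88 ± 0.14 at 4 h, 3.69-fold (adjusted p = 2e-12). From 8 h to 48 h the change against 0 h stayed between 1.19 and 1.39, and each was called. The decline from 4 h to 48 h was -0.67 ± 0.14 (adjusted p = 0.00031), less than 2-fold. In the order of its 8 time means, 3 of 7 neighbouring pairs did not overlap: 0 h and 1 h, 1 h and 24 h, and 12 h and 4 h.

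EGLN3 encodes the prolyl hydroxylase PHD3, itself a known HIF target. Its signal (219232_s_at) was 101, 6.97 and 98.3 at 0 h, 265, 150 and 133 at 1 h, and 602, 566 and 541 at 4 h. It was 455, 402 and 380 at 8 h, 406, 544 and 499 at 12 h, and 563, 770 and 484 at 16 h. The highest means were those of the latest times, with 823, 869 and 690 at 24 h and 763, 874 and 741 at 48 h. No array from 1 h on overlapped the 0 h arrays, of which replicate 2 was far below the other pair. EGLN3 rose by 1.46 ± 0.34 at 1 h (adjusted p = 0.0069), by 3.07 ± 0.34 at 4 h (8.38-fold, adjusted p = 1.4e-08) and by 3.53 ± 0.34 at 24 h and at 48 h. Its 48 h mean was 0.46 ± 0.34 above that at 4 h, which was not called (adjusted p = 0.34). The 1 h call was lost in 5 of 16 alternatives, with a limma adjusted p of up to 0.26. It was lost without 0 h replicate 2 (0.72, adjusted p = 0.11) and without 1 h replicate 1 (1.19, adjusted p = 0.084). It was also lost with the larger pseudocount (0.90), without a mean-variance trend and with only the groups compared. The calls from 4 h to 48 h held in all 16 alternatives. Without 0 h replicate 2 the change was 2.32 at 4 h and 2.78 at 48 h.

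Of 7 other genes of oxygen sensing, 3 were called higher and 1 lower at some time, beside 40.4% of all genes called. EPAS1, the alpha subunit of HIF-2, rose by 1.32 ± 0.14 at 4 h (adjusted p = 9.9e-09) and by 1.57 ± 0.14 at 16 h, from a mean signal of 3782 ± 699 (SD, n = 3) at 0 h to 11169 ± 449. Its other probe set was at 0.18 and 0.00 at these times, so the probe sets of EPAS1 disagree. EGLN1, the hydroxylase PHD2, rose at 4 h by 1.66 ± 0.20 (adjusted p = 5.1e-08) and was at 0.08 by 16 h; its probe set may cross-hybridize (name ending in _x_at), so it is uncertain. ARNT2, a partner subunit, rose by 2.26 ± 0.50 at 48 h from a dim 18.9 ± 6.81 (SD, n = 3) at 0 h. HIF3A, which encodes a further alpha subunit, fell by 1.58 ± 0.56 at 48 h (adjusted p = 0.027). ARNT, VHL and HIF1AN, the asparagine hydroxylase that restrains HIF, were not called. At 48 h they stood at 0.86, -0.08 and 0.10.

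VEGFA is the main growth factor for blood vessels and a known HIF target. On the brightest probe set, VEGFA was lower than at 0 h from 16 h on, when HIF1A and EGLN3 were higher. Its brightest probe set (210512_s_at) read 1199, 1129 and 1105 at 0 h, 1245, 1120 and 1569 at 1 h, and 1691, 1896 and 1536 at 4 h. It read 1706, 1722 and 1734 at 8 h, 1131, 802 and 984 at 12 h, and 577, 474 and 349 at 16 h. The last times gave 322, 436 and 186 at 24 h and 142, 286 and 192 at 48 h. All arrays at 4 h and 8 h lay above those at 0 h and all from 16 h on lay below them. The early change was 0.57 ± 0.23 at 4 h (adjusted p = 0.063) and 0.58 ± 0.23 at 8 h (adjusted p = 0.048), not called. VEGFA fell by 1.29 ± 0.23 at 16 h (adjusted p = 2.6e-05), by 1.88 ± 0.23 at 24 h and by 2.42 ± 0.23 at 48 h (5.35-fold, adjusted p = 1.8e-10). Between 4 h and 48 h it fell by 2.99 ± 0.23, 7.92-fold (adjusted p = 2.2e-12). The step from 12 to 16 h was -1.04 ± 0.23 (adjusted p = 0.023). That call was lost in 8 of 16 alternatives, with values from -1.21 to -0.86, among them those without 12 h replicate 1 or 3 and without 16 h replicate 2 or 3.

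The other 3 VEGFA probe sets pointed the same way between 4 h and 48 h. Probe set 210513_s_at had 393, 290 and 312 at 4 h and 111, 165 and 117 at 48 h, and it fell by 1.24 (adjusted p = 0.0048), a call lost with the larger pseudocount (-0.99). Probe set 212171_x_at had 945, 866 and 840 at 4 h and 158, 323 and 192 at 48 h, and it fell by 1.95 (adjusted p = 3.4e-08). Probe set 211527_x_at had 208, 128 and 120 at 4 h and 6.76, 7.08 and 5.56 at 48 h, where it was near the bottom of the array, and it fell by 2.76 (adjusted p = 0.00041). None of the 4 probe sets had overlapping arrays at these times. Against 0 h, only 212171_x_at was called beside the brightest at 48 h (-1.22), a call lost with median centring (-0.96). At 24 h only 210513_s_at was called beside it (-1.18), with arrays that overlapped those at 0 h, and 5 of 15 alternatives lost that call. At 16 h the brightest alone was called. The others were then at -0.49 (210513_s_at), -0.83 (211527_x_at) and -0.64 (212171_x_at), with arrays that overlapped those at 0 h. Names ending in _x_at mark possible cross-hybridization.

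**Figure D3:**
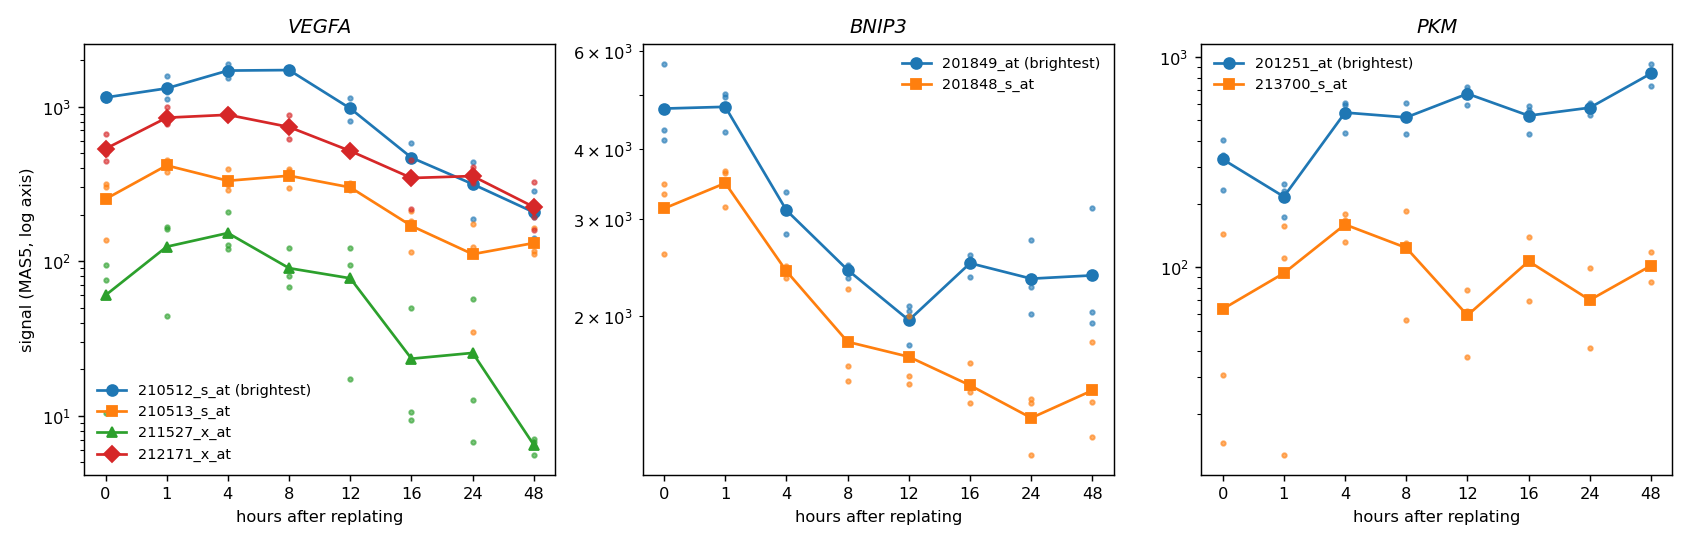
MAS5 signal on a log axis against hours after replating for every tested probe set of VEGFA, BNIP3 and PKM; small points are arrays and lines join the means of 3. The 4 VEGFA probe sets are lower at 48 h than at 4 h, both BNIP3 probe sets are lower from 8 h on than at 0 h, and the dimmer PKM probe set does not follow the brighter one.

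ADM encodes adrenomedullin, a vasodilator peptide and a known HIF target. Its signal (202912_at) was 1492, 1098 and 1057 at 0 h, 1943, 1502 and 1573 at 1 h, and 1025, 934 and 1130 at 4 h. It was 747, 746 and 937 at 8 h, 805, 994 and 826 at 12 h, and 646, 711 and 956 at 16 h. At 24 h it was 810, 911 and 1015, and at 48 h 858, 813 and 831. The 1 h arrays lay above all others, and the arrays from 8 h on lay below the 3 at 0 h. The F-test over the course passed (adjusted p = 9e-06), but no comparison with 0 h reached 2-fold. The nearest was -0.65 ± 0.17 at 16 h (adjusted p = 0.0023), and the 1 h value was 0.46 ± 0.17 (adjusted p = 0.13). From 1 h to 4 h the change was -0.69 ± 0.17 (adjusted p = 0.0024), again under 2-fold.

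Among 10 other ligands and receptors of these factors, 3 were called against 0 h at some time, namely VEGFC, PGF and KDR, beside 40.4% of all genes. VEGFC, a growth factor for lymphatic vessels, rose by 2.42 ± 0.43 at 4 h and by 3.04 ± 0.43 at 16 h (adjusted p = 7.3e-07), from a mean signal of 8.98 ± 6.59 (SD, n = 3) to 200 ± 17.4. Its 0 h signal was near the bottom of the array. KDR, the main VEGFA receptor, fell by 2.81 ± 0.60 at 24 h (adjusted p = 0.0003), from a mean signal of 241 ± 62.3 (SD, n = 3) at 0 h. PGF, placental growth factor, fell by 1.00 ± 0.25 at 1 h on a probe set that may cross-hybridize. The remaining 7, which included the adrenomedullin receptor genes CALCRL, RAMP1 and RAMP2, were not called. The median over the 10 genes was -0.97 at 48 h, beside -0.12 for all genes.

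BNIP3 encodes a mitochondrial outer membrane protein that promotes mitophagy and is a known HIF target. Its brighter probe set (201849_at) read 4158, 4340 and 5706 at 0 h, 4977, 4305 and 5024 at 1 h, and 3355, 2810 and 3148 at 4 h. It read 2477, 2341 and 2457 at 8 h, 2089, 1773 and 2045 at 12 h, and 2541, 2584 and 2358 at 16 h. At 24 h it read 2259, 2742 and 2017, and at 48 h 1943, 3130 and 2041. Every array from 4 h on lay below the 0 h arrays. BNIP3 fell by 1.25 ± 0.15 at 12 h (2.37-fold, adjusted p = 6e-08), and this call held in all 16 alternatives. It fell by 1.01 ± 0.15 at 24 h and at 48 h, just past 2-fold. With each array centred on its median these became -0.80 and -0.75, with the larger pseudocount both were -0.99, and without 0 h replicate 3 both were -0.87. Both calls were also lost without replicate 1 or 3 of the later time, with values of -0.99 and -0.91 at 24 h and -0.89 and -0.92 at 48 h.

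The second BNIP3 probe set (201848_s_at) read 3465, 2594 and 3327 at 0 h and 1212, 1404 and 1799 at 48 h. It fell by 1.04 ± 0.16 at 16 h, by 1.24 ± 0.16 at 24 h (adjusted p = 1.2e-07) and by 1.09 ± 0.16 at 48 h. The 16 h call was lost in 4 of 15 alternatives (median centring and without 0 h replicate 1 or 3 or 16 h replicate 3), with values up to -0.76. That at 48 h was lost with median centring and without 48 h replicate 1, with values up to -0.83, and that at 24 h in none. Its arrays from 4 h on did not overlap those at 0 h.

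Of 10 other genes of mitophagy and BNIP3 partners, 1 was called higher and 5 lower at some time, beside 40.4% of all genes called. BCL2L1, a survival protein, rose by 2.38 ± 0.24 at 16 h (adjusted p = 7.4e-10), but its other probe set was at 0.51. BNIP3L, the closest relative of BNIP3 and also a HIF target, fell by 1.60 ± 0.16 at 24 h (adjusted p = 7.4e-10). It stood at -0.55 at 48 h. GABARAPL1, an autophagosome protein, fell by 1.64 ± 0.28 at 24 h, and PINK1, a kinase that marks damaged mitochondria, fell by 1.14 ± 0.19 at 48 h (adjusted p = 1e-05). ULK1, the kinase that starts autophagy, fell by 1.49 ± 0.43 at 24 h, and BCL2 fell by 1.00 ± 0.29 at 12 h only, with its other probe sets at 0.24 and 0.84.

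PFKP encodes the platelet form of phosphofructokinase, the enzyme of the committed step of glycolysis, and with EGLN3 it had the largest rises of the 10 genes. Their order depends on the added constant: the highest change of PFKP was 3.83 and of EGLN3 3.53, but without a pseudocount they were 4.01 and 4.27. Its signal (201037_at) was 157, 84.5 and 170 at 0 h, 367, 240 and 249 at 1 h, and 1917, 1612 and 1643 at 4 h. It was 1958, 2142 and 2028 at 8 h, 2401, 2045 and 1925 at 12 h, and 1970, 1709 and 1590 at 16 h. Later it was 1570, 1358 and 1941 at 24 h and 1678, 1315 and 1184 at 48 h. All arrays from 1 h on lay above those at 0 h, and all from 4 h on lay above those at 1 h. The 1 h change was 0.99 ± 0.19 (adjusted p = 0.00088), just under 2-fold, and 7 of 16 alternatives called it. Without 0 h replicate 2 the changes were 0.72 at 1 h, 3.26 at 4 h and 2.94 at 48 h. PFKP rose by 3.53 ± 0.19 at 4 h (11.6-fold, adjusted p = 1.1e-15) and by 3.83 ± 0.19 at 12 h (14.2-fold, adjusted p = 1.3e-16). At 48 h it was still 3.22 ± 0.19 above 0 h, and its change from 4 h to 48 h was -0.32 ± 0.19 (adjusted p = 0.24). In the order of its time means, 0 h and 1 h stood apart from each other and from all later times, whose neighbours overlapped.

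PFKFB3 encodes a bifunctional enzyme that makes fructose 2,6-bisphosphate, the activator of phosphofructokinase. Its signal (202464_s_at) was 273, 337 and 313 at 0 h, 864, 820 and 679 at 1 h, and 1937, 2749 and 2349 at 4 h. It was 1490, 1825 and 1494 at 8 h, 1520, 1263 and 1340 at 12 h, and 986, 971 and 1015 at 16 h. At 24 h it was 639, 887 and 1119, and at 48 h 503, 690 and 797. All later arrays lay above those at 0 h, and the 4 h arrays lay above all others. PFKFB3 rose by 1.30 ± 0.18 at 1 h (2.47-fold, adjusted p = 4.4e-06), by 2.85 ± 0.18 at 4 h (7.21-fold, adjusted p = 5.3e-14) and by 1.05 ± 0.18 at 48 h (adjusted p = 2.1e-05). It fell by 1.80 ± 0.18 between 4 h and 48 h (adjusted p = 1.4e-09). The 48 h call against 0 h was lost with the larger pseudocount (0.93), without 0 h replicate 1 (0.97) and without 48 h replicate 3 (0.91).

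PKM encodes the widespread pyruvate kinase, which makes pyruvate and ATP at the end of glycolysis. Its brighter probe set (201251_at) read 404, 233 and 344 at 0 h, 173, 230 and 248 at 1 h, and 438, 607 and 589 at 4 h. It read 518, 603 and 432 at 8 h, 697, 590 and 722 at 12 h, and 432, 559 and 588 at 16 h. The 24 h arrays read 606, 589 and 531, and those at 48 h 849, 932 and 729. Arrays from 4 h on lay above those at 0 h, and the 48 h arrays lay above all others. PKM rose by 1.33 ± 0.20 at 48 h (2.52-fold, adjusted p = 2.7e-06) and by 1.02 ± 0.20 at 12 h (adjusted p = 0.00015). The 12 h call was lost with the larger pseudocount (0.91), without 0 h replicate 2 (0.81) and without 12 h replicate 1 (0.99) or 3 (0.97). The dimmer probe set (213700_s_at) read 14.7, 30.9 and 145 at 0 h and 132, 180 and 169 at 4 h. It was called at 4 h (1.47 ± 0.54, adjusted p = 0.04) although its arrays overlapped, and 10 of 14 alternatives lost that call. At 48 h it was at 0.90 ± 0.54 (adjusted p = 0.21).

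LDHA encodes the lactate dehydrogenase subunit that favours lactate formation and is a known HIF target. Its signal (200650_s_at) was 20829, 24215 and 23874 at 0 h, 24326, 20152 and 22076 at 1 h, and 21035, 23304 and 22063 at 4 h. It was 20570, 22953 and 25988 at 8 h, 24233, 22694 and 21570 at 12 h, and 24559, 21302 and 23259 at 16 h. At 24 h it was 25447, 23749 and 22994, and at 48 h 21502, 23352 and 24921. Arrays of every later time overlapped those at 0 h. All 7 changes lay between -0.05 and 0.07, each with an SE of 0.12. At 48 h the change was 0.02, with a 95% confidence interval from -0.23 to 0.27. The probe set was among the brightest of the array, at percentile 99.3 at the median.

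HK2 encodes the hexokinase of muscle and proliferating cells, a known HIF target. Its only tested probe set (202934_at) passed the filter with 4 of 24 arrays above the 40th percentile, of which 2 were at 4 h. Without the 4 h arrays it would not have reached the 3 arrays that the filter asked for. It read 28.5, 44.8 and 12.9 at 0 h, 20.9, 16.1 and 15.2 at 1 h, and 84.7, 58.8 and 138 at 4 h. From 8 h to 24 h its signals ran from 4.3 to 99.2, and at 48 h they were 42.3, 8.34 and 15.6. The 4 h arrays lay above those at 0 h, 1 h and 48 h, while 8 h and 24 h overlapped 0 h. The 4 h change against 0 h was 1.26 ± 0.59 (adjusted p = 0.11). The step from 1 h to 4 h was 1.60 ± 0.59 (adjusted p = 0.048), and 48 h against 4 h was -1.51 ± 0.59 (adjusted p = 0.0497). Each of the latter calls was lost in 9 of 15 alternatives, the first without any 1 array of either time, the other without 4 h replicate 1 or 3 or 48 h replicate 2 or 3. Probe set 222305_at read 15.2, 29.3 and 35.4 at 0 h, 131, 12.6 and 21.0 at 4 h and 11.3, 29.9 and 58.1 at 48 h, and these arrays overlapped.

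Beyond the members, 17 genes of glucose uptake and glycolysis were tested. Of these, 6 were called lower at some later time and 11 were not called, beside 40.4% of all genes called in either direction. PKLR, the liver and red cell pyruvate kinase, fell by 3.46 ± 0.41 at 48 h, from 344 ± 114 (SD, n = 3) to 13.7 ± 2.95 (adjusted p = 2.3e-08). Its other probe sets ranged from -1.68 to 0.20 at that time, so they disagree. SLC2A2, the liver glucose transporter GLUT2, fell by 2.84 ± 0.27 at 16 h (adjusted p = 3.9e-10) and stood at -1.84 at 48 h. PFKFB1, the liver relative of PFKFB3, fell by 2.56 ± 0.47 at 16 h (adjusted p = 5.1e-05). ALDOC, an aldolase, fell by 1.98 ± 0.19 at 24 h, and PFKM, the muscle phosphofructokinase, fell by 1.13 ± 0.32 at 16 h. LDHB, the partner subunit of LDHA, fell by 1.43 ± 0.41 at 24 h on a probe set that may cross-hybridize. As examples among the 11, ENO1 was at 0.74 and ALDOA at 0.85 at 48 h, while GAPDH was at 0.26, TPI1 at 0.27 and PGK1 at 0.08. These examples all had positive values and do not stand for the list. The list median at 48 h was -0.25, beside -0.12 over all genes.

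The members and their liver counterparts were also set against each other within each array, as differences of log2(signal + 18). Such a difference shows unequal change and does not compare the levels of the transcripts. The difference PFKP minus PFKL (PFKL encodes the liver phosphofructokinase) was -1.80 ± 0.16 (SD, n = 3) at 0 h, 1.74 ± 0.22 at 4 h and 2.24 ± 0.36 at 48 h, a shift of 4.04. PKM minus PKLR went from -0.05 ± 0.79 at 0 h to 4.75 ± 0.23 at 48 h. The size of this shift, 4.80, is not settled, since PKLR at 48 h (13.7) lay below the added 18 and its probe sets disagree. It was 3.42 with the larger pseudocount and 6.0 with none. PFKFB3 minus PFKFB1 went from 0.44 ± 0.25 to 3.39 ± 0.29, a shift of 2.95, and was at 4.18 ± 0.21 by 4 h. For the glucose transporters, SLC2A1 minus SLC2A2 shifted by 2.11, from -1.48 ± 0.63 to 0.63 ± 0.34. In each pair the 3 values at 48 h lay above the 3 at 0 h, and the two-sided exact permutation p was 0.1, the smallest that 3 against 3 arrays allow. PFKL was not called at 48 h (-0.82 ± 0.23, on a probe set that may cross-hybridize), and SLC2A1 was at 0.27 ± 0.24, with its other probe set at -1.19. The shift of the PFKP pair came with a called rise of PFKP, and that of the transporter pair with a called fall of SLC2A2.

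**Figure D4:**
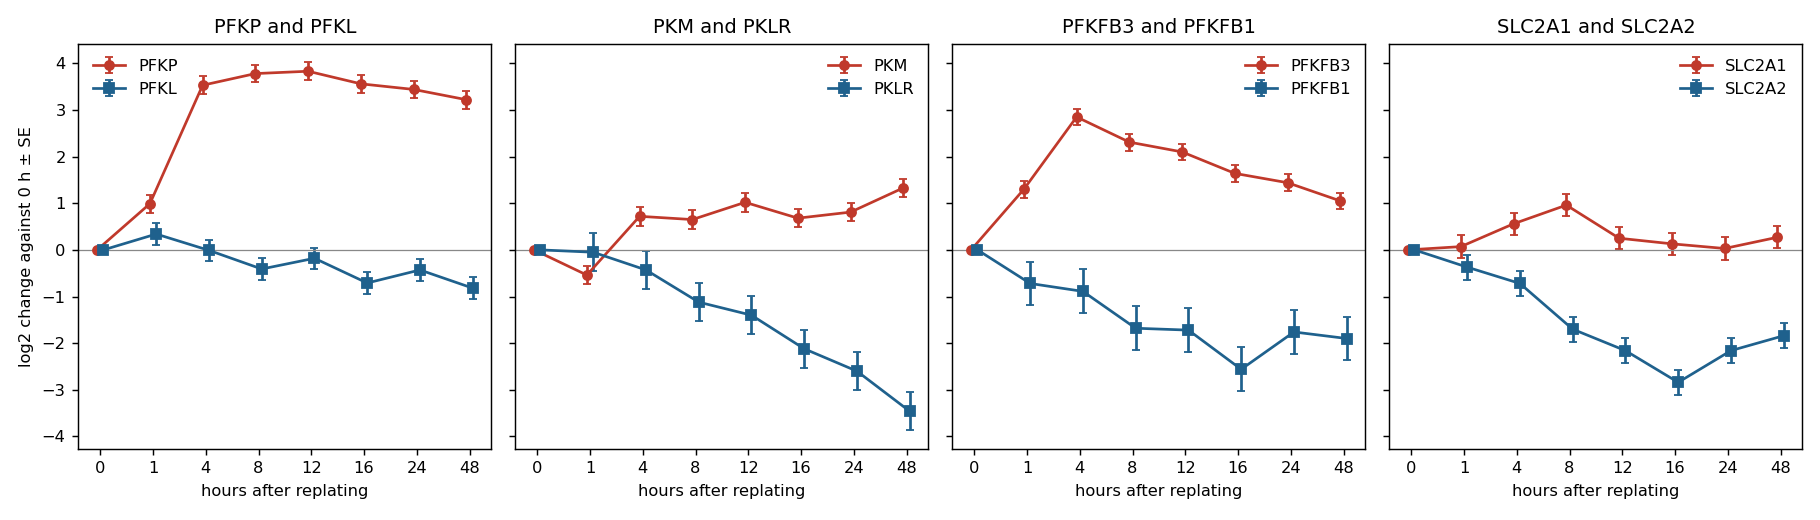
Log2 change against 0 h with SE (bars) at each time, on the log2(signal + 18) scale, for 4 pairs of a widespread form (red circles) and a liver form (blue squares). PFKP and PFKFB3 climb to 3.53 and 2.85 by 4 h, while PKLR and SLC2A2 decline to -3.46 at 48 h and -2.84 at 16 h.

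Pyruvate entry into mitochondria, the alternative to lactate formation by LDHA, was followed by 12 genes, of which 6 were called lower at some time and 6 were not called (40.4% of all genes were called). PC, which feeds pyruvate into glucose synthesis, fell by 2.24 ± 0.36 at 48 h (adjusted p = 7.4e-06). The pyruvate carrier genes MPC1 and MPC2 fell by 1.09 ± 0.19 and 1.08 ± 0.13 at 12 h. PDK4, a kinase that shuts off pyruvate dehydrogenase, fell by 2.26 ± 0.53 at 24 h. PDK2, a related kinase, fell by 1.75 ± 0.35 at 48 h, but its other probe set was at 1.25. DLD, a subunit shared by such dehydrogenases, fell by 1.03 ± 0.16 at 16 h. PDK1, a known HIF target, was not called, and stood at 0.50 ± 0.57 at 48 h.

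Known HIF targets outside the 10 members did not move one way. Of 23 tested, 5 were called higher and 6 lower at some later time, and 12 were not called. The 11 called compare with a share of 40.4% among all genes, so their number says little about these targets. PLOD2, a collagen-modifying lysyl hydroxylase, rose by 2.54 ± 0.17 at 4 h (adjusted p = 8.7e-14) and was still at 1.90 at 48 h. ANGPTL4, an inhibitor of lipoprotein lipase, rose by 2.80 ± 0.20 at 12 h. BHLHE40, a transcriptional repressor, rose by 2.49 ± 0.19 at 1 h and was at -0.08 by 48 h. STC2, a secreted glycoprotein, rose by 1.98 ± 0.50 at 4 h, and CA12, a carbonic anhydrase, by 1.56 ± 0.16 at 12 h on a probe set that may cross-hybridize, with its other probe sets between -0.78 and 1.57. DDIT4, an inhibitor of mTORC1, fell by 1.76 ± 0.17 at 1 h (adjusted p = 2.8e-09) and was 0.95 ± 0.17 above 0 h at 48 h, under 2-fold. ANG, angiogenin, fell by 1.90 ± 0.19 at 48 h, MXI1, a MYC antagonist, by 1.61 ± 0.19 at 16 h, and NDRG1 by 1.57 ± 0.18 at 48 h. PLOD1 fell by 1.07 ± 0.22 at 12 h, and BNIP3L, described above with BNIP3, was the remaining one. NDRG1 was chosen for mention after its values were seen, as were CA12 and PLOD1. The list median was -0.11 at 4 h and -0.08 at 48 h, beside -0.16 and -0.12 over all genes.

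**Figure D5:**
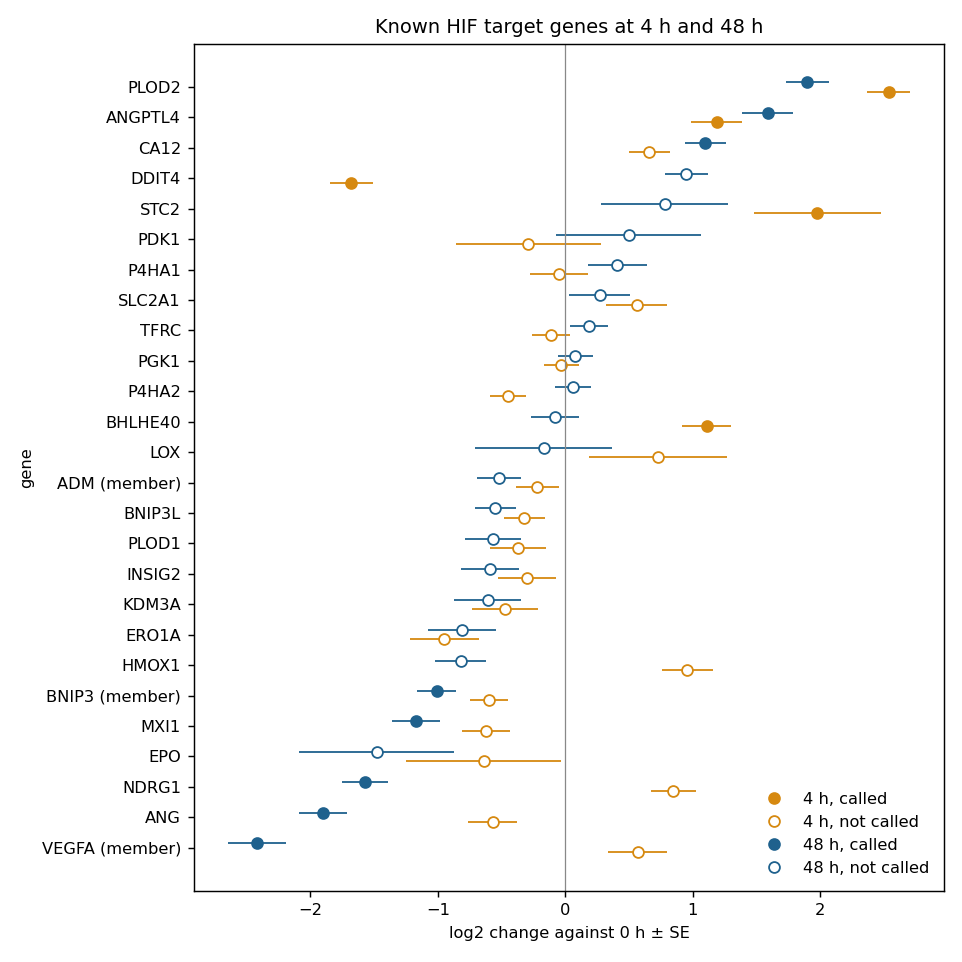
Log2 change against 0 h with SE at 4 h (orange) and 48 h (blue) for the 23 tested HIF targets of the list and the members VEGFA, ADM and BNIP3, on the log2(signal + 18) scale; filled points were called. Of the genes drawn, PLOD2 at 2.54 and DDIT4 at -1.68 mark the ends at 4 h, and VEGFA at -2.42 is the lowest at 48 h. The other members, among them the known HIF targets EGLN3, LDHA and HK2, are not drawn. At 4 h EGLN3 was at 3.07 (called), HK2 at 1.26 and LDHA at -0.05 (both not called).

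Over the 8 time means, the courses of the members fell into unlike shapes. PFKP correlated with HIF1A at r = 0.93 and with EGLN3 at 0.92, and PFKFB3 with HIF1A at 0.91. VEGFA correlated with HIF1A at -0.04 and with EGLN3 at -0.51, and BNIP3 with PFKP at -0.91 and with ADM at 0.88. These values describe 8 points that share their arrays, and no test was made. By the same measure over all 9966 genes, the courses most like that of PFKP were CAV2 (0.996) and CORO1C (0.993), and 4.2% of genes exceeded 0.9 with it. Nearest to HIF1A were ETF1 (0.992) and DAXX (0.985), nearest to EGLN3 were MARCKS (0.987) and SGMS1 (0.985), and nearest to PFKFB3 were SSH1 (0.981) and LONRF3 (0.976). VEGFA was most like CP (0.989) and AKR1D1 (0.985), BNIP3 like LRP6 (0.989) and SLC38A4 (0.988), and PKM like WASF2 (0.992) and DDX50 (0.977). ADM was most like TGFBR2 and PKIG (both 0.971). Nearest to the level LDHA were PRKD2 (0.955) and SEL1L3 (0.944), and the time means of LDHA differed within the spread of its arrays. Nearest to the dim HK2 were SUN1 (0.977) and PLEKHA5 (0.967). The HK2 course follows signals near the low end of the array, with only the 4 h arrays above those at 0 h, 1 h and 48 h.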

How the data were processed

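Gene expression of HepaRG cells was measured in 24 samples, 3 at each of 8 times, on a 1-colour Affymetrix human array with 22283 probe sets, 68 of them controls. The deposited values are linear intensities that the authors computed with MAS5, per the submitters' processing notes. Neither the MAS5 version nor its scaling is given in the sources used here. Each array took cRNA made from 100 ng of RNA by 3' labelling, per the labels' protocols. Detection calls were not used.

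Signals entered as log2(signal + 18). The filter kept 17122 probe sets that exceeded the 40th percentile of an array on 3 arrays or more. limma 3.58.1 in R 4.3.3 fitted all 24 arrays together (lmFit with 16 residual degrees of freedom, contrasts between time means, trended eBayes), with Benjamini-Hochberg adjustment over all tested probe sets, two-sided. The script was tested on simulated data. The number of arrays limits the precision. Gene names came from the array's annotation table. Promoters were read from RefSeq, and figures were drawn with matplotlib 3.10.9.

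The members, lists and tests were chosen with earlier results of these data known. The text names all members with every probe set, all oxygen sensing genes and isoenzyme pairs, up to 8 called genes with the largest change from every other list, and the 2 genes with the most similar course per member. Genes outside this rule are named as chosen after their values were seen, or as examples of members not called. Alternatives were no pseudocount (floor of 1), a larger one (73.8), quantile normalization, median centring, no filter, a stricter filter (6 arrays above their 60th percentile), 1 probe set per gene, only the groups compared, no mean-variance trend, the replicate number as a block, and leaving out each array.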

Additional observations from a re-analysis of the deposited data

How the results depend on the processing

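Of 165 recomputed counts and isoenzyme shifts under other settings, 157 held, as did 126 of 132 with an array left out. A count held if it stayed within 1.5 times the main count, and a shift held if it kept its sign. The test of the shifts was not recomputed. The count of member probe sets at 1 h was 1 in place of 2 with the larger pseudocount, without a mean-variance trend and with only the groups compared, and 1 to 3 with an array left out. The count in the step from 12 to 16 h was 0 in place of 1 with the larger pseudocount, quantile normalization, median centring and no mean-variance trend, and 0 to 1 with an array left out. With 1 probe set per gene, 3 of 10 were called lower at 48 h against 4 h, where 6 of 15 had been; fewer probe sets entered. For the brightest probe set of each gene against 0 h, signs changed only for values that were never called. For HK2 these were -0.08 at 8 h without a pseudocount, and 0.04 and 0.01 at 48 h with quantile normalization and median centring. For LDHA they were -0.11, -0.19 and -0.02 at 8, 16 and 24 h with quantile normalization, and 0.00, 0.08 and 0.19 at 1, 4 and 12 h with median centring. For BNIP3 at 1 h it was -0.03 with quantile normalization. With an array left out, HK2 ranged from -0.51 to 0.52 at 8 h and from -0.59 to 0.01 at 48 h, and BNIP3 from -0.06 to 0.16 at 1 h. LDHA then ranged from -0.12 to 0.02 at 1 h, from -0.08 to 0.09 at 8 h, from -0.08 to 0.03 at 12 h, from -0.06 to 0.06 at 16 h, from -0.00 to 0.11 at 24 h and from -0.05 to 0.07 at 48 h. Dimmer probe sets also changed sign at 12 h, where they were not called. Their values ran from -0.24 to 0.91 for 213700_s_at of PKM and from -0.32 to 0.9 for 211527_x_at of VEGFA. They ran from -0.04 to 0.51 for 210513_s_at and from -0.15 to 0.17 for 212171_x_at of VEGFA. The dimmer PKM probe set did so at 1 h and 24 h too, with lowest values of -0.02 and -0.07. The cause of these shifts was not tested.

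The replicate numbers did not pair the samples: deviations of same-numbered arrays correlated at -0.067 to 0.065, and 12 of 24 arrays correlated best with their own number. With the replicate block the counts against 0 h were 2, 5, 4, 6, 6, 8 and 9 as before. The step from 1 to 4 h had 5 calls in place of 6, and 48 h against 4 h had 5 in place of 6, HK2 being lost in both.

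The 3 arrays at a time and the single cell line limit what these values cover. HK2, the dimmer PKM probe set and 211527_x_at of VEGFA lie near the low end of the array, where signals are least precise.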
